A study of Bos taurus with 18 samples.

Results

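Dermal fibroblasts taken from the same heifers at 16 and at 5 months of age were compared 8 h after exposure to bacterial lipopolysaccharide (LPS). The 6 libraries compared, of 18 in the series, were chosen by their labels, 3 at 16 months and 3 at 5 months with 1 culture of each of 3 Holstein animals at each age. Both ages had 100 ng/ml LPS in the medium for 8 h, and libraries collected at 0 h and at 2 h make up the rest of the series. Each library was poly-A selected RNA from the pooled lysates of a pair of wells, so replicates are separate cultures of separate animals. The animals had been picked from a larger herd for an intermediate IL-8 response of their fibroblasts, and their cells had been frozen at each age and grown side by side for the challenge. No culture of 8 h without LPS was analysed here, so the effect of LPS cannot be told apart from that of time in culture, and age cannot be told apart from the biopsy and cell stock taken at that age.

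LPS is recognised at the cell surface by TLR4 with its partner LY96 (MD-2), to which CD14 delivers it. One arm of the pathway runs through the adaptor MYD88 to NF-kB and turns on chemokine and cytokine genes, and the other runs through TICAM1 (TRIF) and IRF3 to type I interferon, which acts back on cells through its receptor and STAT2 with IRF9 to induce the interferon-stimulated genes. Dermal fibroblasts make the collagens, elastic fibres and proteoglycans of the skin and recruit leukocytes with the chemokines they secrete.

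The 6 libraries had 51844891 to 87879039 matched reads and read counts that summed to 66955034 to 110169769 over gene windows, the stretches of the genome named for a gene. With intergenic windows added, the counts came to 1.54 to 1.66 per matched read, so a read could be counted in more than 1 window. Levels are given as CPM, the read count of a window scaled to a library total of 1000000 over gene windows, and differences as log2 fold changes of 16 over 5 months with their standard error (SE) from edgeR's quasi-likelihood F test with the animal as a block. A gene was called higher or lower when its Benjamini-Hochberg adjusted p was under 0.05 and the difference at least 2-fold. Summed over 12 fibroblast markers, the level was 79837 to 114030 CPM at 5 months and 74008 to 98814 CPM at 16 months. Leukocyte and macrophage markers were near the floor, with 0 of 12 tested and sums of 2.16 to 2.96 and 3.15 to 4.69 CPM, and keratinocyte markers had 0 of 10 tested and sums of 1.21 to 1.65 and 1.24 to 3.03 CPM. In the fit of all genes with no filter, a single marker of each of these lists was called higher at 16 months, the macrophage marker CD68 at 0.499, 0.456 and 0.474 against 0.916, 0.965 and 1.88 CPM (1.22 ± 0.29, adjusted p = 0.0352) and the epithelial cadherin CDH1 at 0.0363, 0.0147 and 0.0706 against 0.347, 0.684 and 0.149 CPM (2.86 ± 0.73, adjusted p = 0.0417). The endothelial PECAM1 was called in that fit too, at 0.0908, 0.103 and 0.0908 against 0.263, 0.428 and 0.344 CPM (1.71 ± 0.39, adjusted p = 0.0284). PECAM1 was the 1 called of 9 endothelial markers fitted there, and their median log2 fold change was 0.08. The 10 endothelial markers summed to 38.9 to 41.9 CPM at 5 months and 66.9 to 97.7 CPM at 16 months, most of it from FLT1, a VEGF receptor, at 36.0, 35.6 and 39.1 against 62.6, 94.1 and 78.5 CPM (0.97 ± 0.09, adjusted p = 0.00299, under the 2-fold minimum). The 10 smooth muscle and pericyte markers summed to 7147 to 8863 CPM at 5 months and 4392 to 7131 CPM at 16 months. Of 9 tested 1 lay above 0, with a median of -0.31, and 5 were lower by adjusted p alone (14.1% of all genes). Among them KCNMB1, a potassium channel subunit, was higher (2.36 ± 0.18) and the intermediate filament gene DES lower (-2.34 ± 0.23) at 16 months. DES passed the filter on low values through the 5-month libraries alone and was not called without the animal block. The part of other cell types in the differences below was not tested, and in bulk RNA fewer cells of a type cannot be told apart from less RNA per cell. The 5-month library of animal 2 stood furthest from the others, with a scaling factor of 0.888 where the other 5 lay between 1.01 and 1.04, and some counts are also given without that animal. Without it 755 of 13118 genes (5.76%) were called, 3.86% higher and 1.89% lower. The share called was 4.37% of 13141 genes without animal 1 (3.01% higher and 1.35% lower) and 3.90% of 13120 without animal 3 (2.67% and 1.23%). Without the animal block it was 4.05% of 13055 (2.92% and 1.13%).

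Of 13055 gene windows tested, 644 (4.93%) were called for age at 8 h, 435 (3.33%) higher and 209 (1.60%) lower at 16 months. The direction was the same in 3 of 3 animals for 643 of the 644. The difference was at least 4-fold for 89 of the higher and 43 of the lower genes, and at least 16-fold for 12 and 3. The CPM values of the 3 libraries at 16 months did not overlap those at 5 months for 597 of the 644, against 36.8% of all genes tested, with 413 of the 435 higher (27.7% of all) and 184 of the 209 lower (9.08% of all). Since a gene needed 1 CPM in 3 libraries to be tested, 59 of the higher genes passed through their 16-month libraries alone and 32 of the lower through their 5-month libraries alone, and these had to differ. Many of these genes were also called before LPS. At 0 h, where 525 of 12984 genes tested (4.04%) were called, 2.73% higher and 1.31% lower, 278 of the 435 higher and 112 of the 209 lower genes were called too, each in the same direction. Another 50 of the higher genes, IL8, IL6 and TGM3 among them, were too low at 0 h to be tested, and 7 of the lower. The remaining 107 higher genes had a median log2 fold change of 1.16 at 8 h and 0.72 at 0 h, and the remaining 90 lower genes -1.18 and -0.77. With 1 CPM asked of every library, 441 of 12232 genes (3.61%) were called, 2.49% higher and 1.12% lower, and with no filter 871 of 22302 (3.91%), 2.54% higher and 1.36% lower. Of 11892 intergenic windows with enough reads 338 (2.84%) were called, and these are not counted among the genes.

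**Figure D1:**
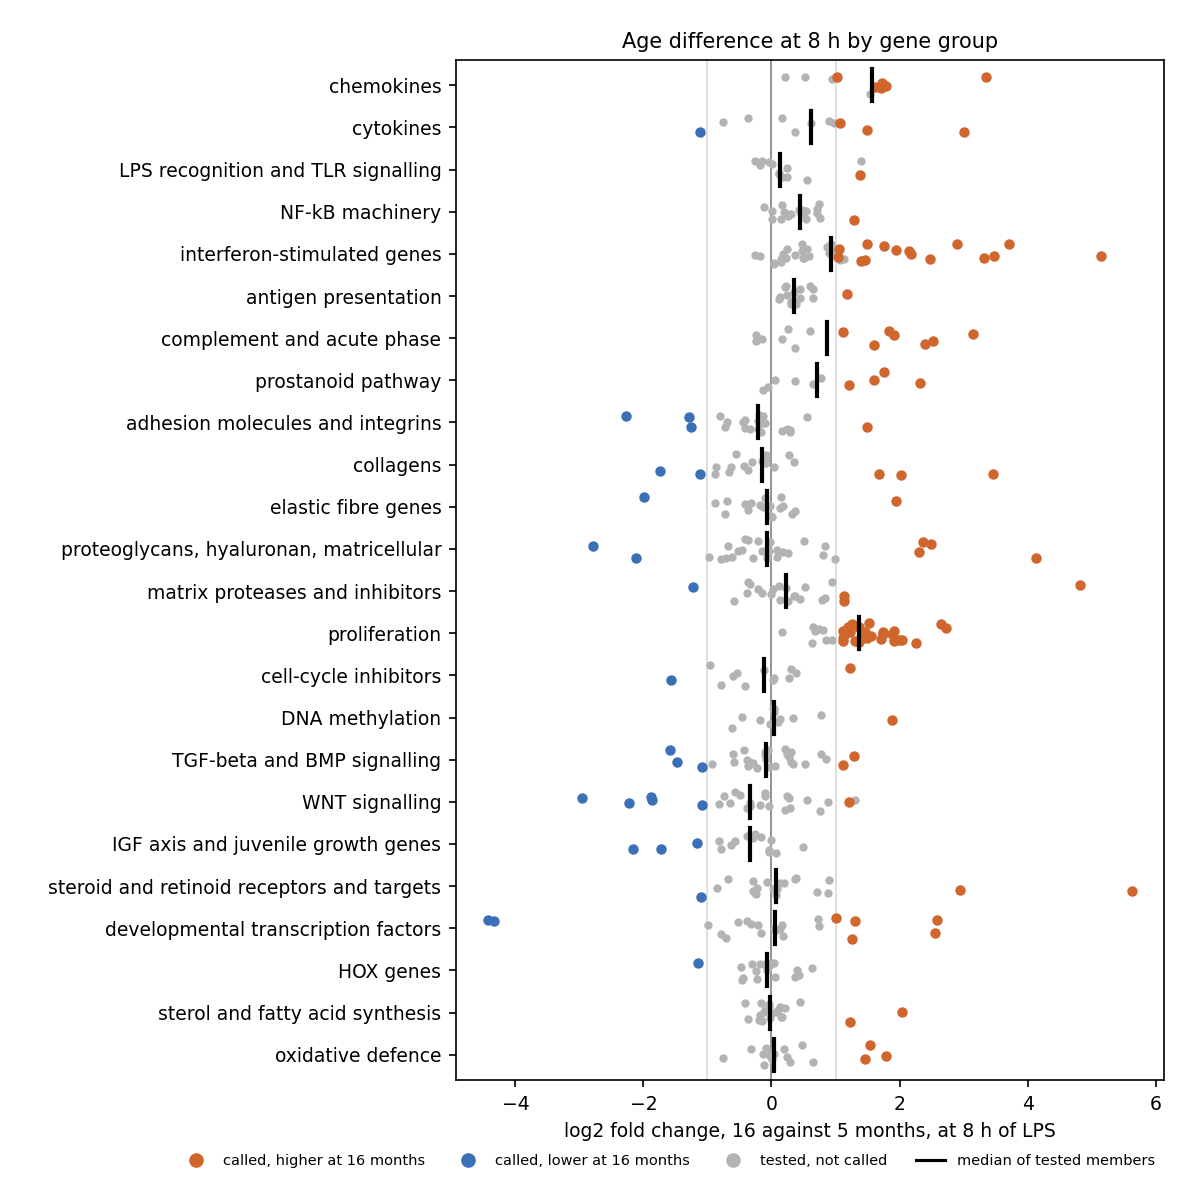
Log2 fold change of 16 over 5 months at 8 h of LPS (horizontal axis) for each tested member of 24 gene lists (rows), with called genes coloured, other genes grey and the median of each list as a bar. Chemokines, interferon-stimulated genes and proliferation genes have medians of 1.57, 0.92 and 1.36, while those of collagens, elastic fibre genes and HOX genes are -0.14, -0.07 and -0.08.

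Interferon-stimulated genes, whose products detect and block viruses, were the longest innate list. Of 42 listed, 37 were tested, and 15 were higher and 0 lower at 16 months. The median log2 fold change over the 37 was 0.92 against -0.01 over all genes tested, and 35 of the 37 were above 0. Of the 15, 3 passed the filter through the 16-month libraries alone, and with 1 CPM asked of every library 10 of 30 were higher, with a median of 0.57. OAS1 (chr17:63638182-63678163, UMD 3.1), an enzyme that signals viral RNA to the nuclease RNase L, was at 6.38, 6.83 and 3.76 CPM in the 5-month libraries of animals 1, 2 and 3 and at 129, 40.7 and 80.8 CPM in their 16-month libraries (3.71 ± 0.46, adjusted p = 0.00639). Every 16-month library was above every 5-month library, and the difference was 13.1-fold. Its neighbour OAS2, with which it shares the end of its window, was at 1.21, 0.795 and 0.676 against 18.5, 4.52 and 10.8 CPM (3.47 ± 0.36, adjusted p = 0.00411). MX2, a nuclear GTPase that blocks viruses, went from 0.145, 0.162 and 0.101 CPM to 8.58, 2.43 and 4.51 CPM (5.14 ± 0.42, adjusted p = 0.00255). It passed the filter through its 16-month libraries alone, and its window overlaps FAM3B. RSAD2 (viperin), an enzyme that makes a chain-terminating nucleotide, had 0.191, 0.294 and 0.121 against 3.67, 1.05 and 1.90 CPM (3.31 ± 0.56, adjusted p = 0.0137), and it too passed through the older cultures alone.

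The remaining called genes of the list lay between 1.03 (HERC6) and 2.90 (IFI27). They included ISG15, a ubiquitin-like modifier, at 2.50, 2.47 and 1.38 against 18.7, 4.40 and 10.6 CPM (2.18 ± 0.50, adjusted p = 0.0315). IRF7, the transcription factor that amplifies interferon production, was at 7.42, 3.39 and 6.25 against 22.0, 9.45 and 16.9 CPM (1.40 ± 0.08, adjusted p = 0.0015). MX1, the cytoplasmic relative of MX2, was at 16.1, 4.39 and 13.0 against 104, 11.4 and 70.4 CPM (2.15 ± 0.30, adjusted p = 0.00835), and its groups overlapped because animal 2 was low at both ages. Upstream of these genes, STAT2 had a log2 fold change of 0.15 ± 0.07 (adjusted p = 0.166), and the receptor chains IFNAR1 and IFNAR2 of 0.18 ± 0.05 and 0.15 ± 0.11, none of them called. Among the 15 called genes the 16-month library of animal 1 was the highest of its age in 14 and that of animal 2 the lowest in 13, where among all 435 higher genes they were so in 156 and 262. The count of higher genes was 8 without animal 1, 21 without animal 2 and 9 without animal 3, where 3.01%, 3.86% and 2.67% of all genes were higher. RSAD2 was not called without animal 1 (2.72) or without animal 3 (3.03).

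The chemokines, which draw leukocytes into tissue, had 10 of 21 members tested, of which 6 were higher and 0 lower, with a median of 1.57. CCL20, the ligand of CCR6, was the most different, at 0.418, 0.0589 and 0.444 CPM at 5 months and 5.65, 1.43 and 2.67 CPM at 16 months (3.34 ± 0.35, adjusted p = 0.00414). It passed the filter through its 16-month libraries alone, and at 0 h 0 reads were counted in each group, which allows up to 0.00948 CPM at 5 months and 0.0123 CPM at 16 months. IL8 (chr6:90559882-90563647, UMD 3.1), the neutrophil attractant by whose response the animals had been picked, was at 39.5, 32.1 and 37.4 CPM at 5 months and 157, 98.9 and 137 CPM at 16 months (1.73 ± 0.12, adjusted p = 0.00191). The groups were well apart, with a 3.32-fold difference, whereas at 0 h IL8 lay between 0.102 and 1.13 CPM in the 6 libraries of both ages.

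CCL5 (RANTES), which attracts T cells and monocytes, was at 28.8, 17.5 and 22.7 against 136, 45.9 and 91.1 CPM (1.79 ± 0.21, adjusted p = 0.00564). CCL2 (MCP-1), the main monocyte attractant, was at 179, 58.9 and 194 against 577, 284 and 534 CPM (1.71 ± 0.12, adjusted p = 0.0021). Its log2 fold change at 0 h was 1.71 as well, and called. CCL26 (1.61 ± 0.24) and CXCL6 (1.02 ± 0.22) were the other two called, while CXCL2 was at 0.95 ± 0.20 (adjusted p = 0.0258), just under the 2-fold minimum. In all 6 called chemokines animal 1 was the highest and animal 2 the lowest of the 16-month libraries, and animal 2 was also the lowest at 5 months. Among all 435 higher genes animal 2 was the lowest of its age in 262 at 16 months and in 281 at 5 months. Without the animal block, where 2.92% of all genes were higher, the count fell to 3, with CCL2 among those not called, and it was 5, 8 and 5 without animal 1, 2 or 3. With 1 CPM asked of every library 4 of 7 were higher, with a median of 1.03.

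**Figure D2:**
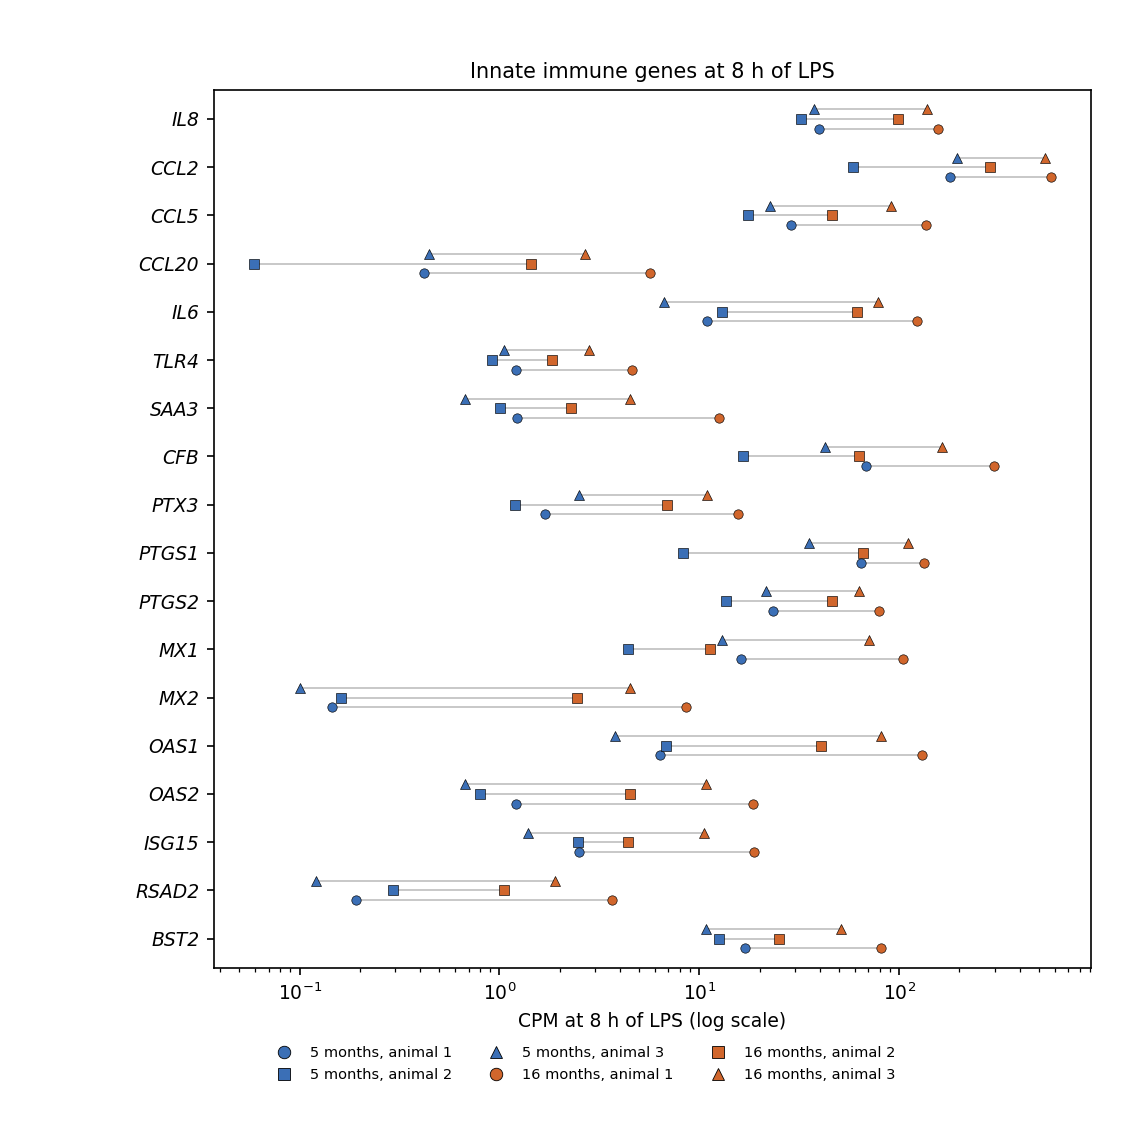
CPM at 8 h of LPS (log axis) of 18 innate genes in each of the 6 libraries, coloured by age and marked by animal. The 16-month values of OAS1, IL6 and IL8 all lie above the 5-month values, whereas those of CFB overlap, and animal 1 tends to be the highest of the 16-month libraries.

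Of 24 cytokine genes 11 were tested, 3 higher and 1 lower, where 3.33% and 1.60% of all genes were. IL6, the pleiotropic acute-phase cytokine, was at 10.9, 12.9 and 6.67 CPM at 5 months and 123, 61.2 and 78.3 CPM at 16 months (3.01 ± 0.34, adjusted p = 0.00493), an 8.04-fold difference with no overlap. IL6 was at 0.0389 to 1.01 CPM in the libraries of 0 h. IL1A, an alarmin of the IL-1 family, was at 0.908, 0.427 and 0.343 against 1.63, 1.34 and 1.82 CPM (1.50 ± 0.33, adjusted p = 0.0282) and passed the filter through the older cultures alone. IL34, a ligand of the macrophage colony-stimulating factor receptor, was at 6.70, 6.30 and 5.77 against 19.3, 11.4 and 12.4 CPM (1.08 ± 0.17, adjusted p = 0.0122). IL15, which sustains natural killer and memory T cells, was lower in the older cultures, at 8.12, 9.35 and 9.05 against 3.15, 6.5 and 4.03 CPM (-1.11 ± 0.14, adjusted p = 0.0071). IL15 (-0.98) and IL34 (0.85) were not called without animal 1, IL1A was not called without animal 2 (1.51) or 3 (1.10), and IL34 was not called without animal 3. Without animal 2 the cytokine list had 3 higher and 2 lower. TNF, the cytokine that usually leads the macrophage response, was at or below 0.0632 CPM in all 6 libraries and was not tested.

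Of 14 tested genes of LPS recognition and Toll-like receptor signalling 1 was higher and 0 lower, a share near that of all genes, and the median was 0.13. By adjusted p alone 5 of the 14 were higher (15.5% of all genes), and 9 of the 14 had non-overlapping groups in that direction (27.7% of all). The count of higher genes was 0 without animal 1 or animal 3 and 3 of 15 without animal 2. The 1 was TLR4 (chr8:108828899-108839911, UMD 3.1), the receptor itself, at 1.22, 0.913 and 1.05 CPM at 5 months and 4.62, 1.83 and 2.81 CPM at 16 months (1.38 ± 0.25, adjusted p = 0.0159). All 16-month libraries were above all 5-month libraries, but TLR4 was not called without animal 1 (1.09) or without animal 3, and its log2 fold change at 0 h was 1.06, not called. CD14 was below the filter, at 0.526, 0.206 and 0.373 against 2.20, 0.855 and 1.94 CPM. The groups did not overlap, and with all genes fitted CD14 was higher (2.07 ± 0.22, adjusted p = 0.00176). TLR2, the receptor for bacterial lipoproteins, was at 1.39 ± 0.41 (adjusted p = 0.0605). LY96 was at 14.8, 13.1 and 13.5 against 13.4, 14.1 and 12.3 CPM (-0.15 ± 0.05, adjusted p = 0.0862), and the adaptors MYD88 (0.17 ± 0.04) and TICAM1 (0.12 ± 0.07) were not called.

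Among 20 tested genes of the NF-kB machinery 1 was higher and 0 lower, a share near that of all genes (4.93%). However, 19 of 20 lay above 0, with a median of 0.45. An adjusted p under 0.05 in the higher direction was found for 11, where 15.5% of all genes had it. TNIP1, which with TNFAIP3 (A20) restrains NF-kB, was the 1 called, at 105, 107 and 102 CPM at 5 months and 369, 210 and 261 CPM at 16 months (1.28 ± 0.20, adjusted p = 0.0113). It was not called without animal 3, and without animal 2 the list had 2 higher. The inhibitor NFKBIA was at 50.9, 46.8 and 51.3 against 107, 66.6 and 91.5 CPM (0.71 ± 0.15, adjusted p = 0.0246), under the 2-fold minimum. The NF-kB subunit RELA was at 0.15 ± 0.05 (adjusted p = 0.0897). Of 16 antigen presentation genes 1 was higher and 0 lower, again near the share of all genes. NLRC5, the activator of class I genes, was the higher one (1.18 ± 0.16, adjusted p = 0.00805), as it was at 0 h (1.47), and was not called without animal 3. The class I gene BOLA was at 0.24 ± 0.08 (adjusted p = 0.075).

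Complement and acute-phase genes, which mark microbes for clearance, had 14 of 26 members tested, 7 higher and 0 lower, with a median of 0.86. MASP1, a protease of the lectin pathway, was at 4.19, 1.32 and 5.03 CPM at 5 months and 32.4, 39.7 and 25.1 CPM at 16 months (3.14 ± 0.44, adjusted p = 0.00857), and its age difference at 0 h was also called (2.98). PTX3, a soluble pattern-recognition molecule whose window overlaps VEPH1, was at 1.70, 1.19 and 2.51 against 15.6, 6.87 and 10.9 CPM (2.53 ± 0.24, adjusted p = 0.00339). Both were apart between the ages in every library. SAA3, a serum amyloid A gene made outside the liver, was at 1.23, 1.00 and 0.676 against 12.5, 2.27 and 4.48 CPM (2.40 ± 0.48, adjusted p = 0.0211). The paper too listed SAA3 as higher at 8 h by RNA-Seq, but its RT-PCR on the same RNA found no age difference then. Reads of SAA3 may be split with its near-identical copy M-SAA3.2, and it was not called without animal 1 (1.83) or without animal 3 (2.26). CFB, the protease subunit of the alternative pathway convertase, was at 68.1, 16.6 and 42.7 against 299, 62.9 and 163 CPM (1.91 ± 0.09, adjusted p = 0.00114). The groups overlapped in CFB, since animal 2 was low at both ages, but the older culture was 4.39, 3.80 and 3.83 times as high in animals 1, 2 and 3, and without the animal block CFB was not called. The called members included C2 (1.84 ± 0.43) and C3 (1.12 ± 0.20) as well. Without animal 1 or animal 3 the count was 4 (over all genes 3.01% and 2.67% were higher), and with 1 CPM asked of every library it was 5 of 12, with a median of 0.49.

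The prostanoid pathway makes prostaglandins from arachidonic acid, and 4 of its 10 tested genes were higher and 0 lower. PLA2G4A, the phospholipase that releases arachidonic acid, was at 58.4, 26.4 and 55.6 against 135, 86.9 and 113 CPM (1.22 ± 0.10, adjusted p = 0.00275). PTGS2 (COX-2), the inducible cyclooxygenase, was at 23.3, 13.7 and 21.5 against 79.3, 46.2 and 63.0 CPM (1.60 ± 0.06, adjusted p = 0.000991). Its window overlaps LOC100138376. PTGS1 (COX-1), the constitutive form, was at 64.0, 8.26 and 35.5 against 132, 65.5 and 111 CPM (1.76 ± 0.33, adjusted p = 0.0186) and was not called without animal 3 or without the animal block. PTGIS, which makes prostacyclin, was at 11.6, 15.0 and 11.9 against 63.0, 74.5 and 67.8 CPM (2.32 ± 0.09, adjusted p = 0.000991). All 16-month libraries were above all 5-month libraries in these 4 genes, and of the 4 PTGIS was the one called at 0 h (3.03). Over the list 4 of 10 tested genes were called at 0 h too, 3 higher and 1 lower (2.73% and 1.31% of all genes). The median was 0.62 at 0 h and 0.71 at 8 h. The inflammation-induced synthase PTGES was at 0.64 ± 0.12 (adjusted p = 0.018), under the 2-fold minimum.

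Whether the age difference at 8 h was itself different from that at 0 h was tested in the 12 libraries of both times with the culture as a block. Of 12972 genes 35 (0.270%) passed, 24 (0.185%) with a more positive difference at 8 h and 11 (0.0848%) with a more negative one, and 19 of the 35 were among the 644 called at 8 h. Interferon-stimulated genes made up 6 of the 35, of 31 members tested. Their names outside OAS1 were taken after the values were seen. The log2 difference between the age effects was 3.00 ± 0.38 for OAS1 (adjusted p = 0.0251), 2.33 ± 0.33 for BST2, which tethers virus particles (adjusted p = 0.0268), 2.26 ± 0.33 for MX1 (adjusted p = 0.0328), 1.69 ± 0.31 for CMPK2 (adjusted p = 0.0496), 1.64 ± 0.30 for the RNA sensor IFIH1 (adjusted p = 0.0491) and 1.38 ± 0.19 for the ISG15 protease USP18 (adjusted p = 0.0268). At 0 h none of the 26 tested interferon-stimulated genes was called in either direction, with a median of -0.05. Of the chemokines, 0 of 8 tested passed this test, among them IL8 (0.12 ± 0.81, adjusted p = 0.954), whose counts at 0 h were low.

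The widest positive difference was that of TGM3, an epidermal transglutaminase. It was at 0.194, 0.274 and 0.161 CPM at 5 months and 0.410, 0.512 and 0.271 CPM at 16 months before LPS, and at 2.00, 1.32 and 1.07 against 42, 16.4 and 43.8 CPM after 8 h (difference 3.63 ± 0.63, adjusted p = 0.0444). HAS2, a hyaluronan synthase, followed the same order, from 0.389, 0.282 and 0.376 against 0.810, 0.670 and 0.683 CPM before LPS to 2.96, 2.22 and 2.74 against 21.3, 11.4 and 15.8 CPM (difference 1.56 ± 0.22, adjusted p = 0.0268). More than a single window bears the name SERPINB2, an inhibitor of plasminogen activators, and values are of the window whose difference was called. SERPINB2 was at 1.21, 0.657 and 1.48 against 0.244, 0.223 and 0.322 CPM before LPS and at 10.1, 4.86 and 17.1 against 17.5, 24.3 and 14.7 CPM after 8 h. Its age groups overlapped at 8 h (0.83 ± 0.44, adjusted p = 0.21) while the difference between times passed (2.96 ± 0.27, adjusted p = 0.0202). CFB (1.22 ± 0.19), C3 (1.30 ± 0.22) and PTGS1 (1.37 ± 0.18) also had a more positive difference at 8 h.

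HDAC9, a histone deacetylase, moved in the opposite direction. Before LPS it was at 3.94, 9.87 and 3.83 CPM at 5 months and 4.05, 8.06 and 4.47 CPM at 16 months, and at 8 h it was at 3.77, 8.89 and 4.65 against 0.526, 1.60 and 0.926 CPM (-2.64 ± 0.15, adjusted p = 0.00149). The younger cultures spanned nearly the same range at both times while all 3 older ones were low at 8 h, and the difference was -2.50 ± 0.19 (adjusted p = 0.0121). GRIK5, a kainate receptor subunit, had -2.25 ± 0.32 at 8 h (adjusted p = 0.00891) and a difference of -1.80 ± 0.28 (adjusted p = 0.037). ACAN, the cartilage proteoglycan aggrecan, was at 0.791, 0.235 and 0.941 against 64.2, 21.1 and 54.3 CPM before LPS and at 3.05, 0.398 and 3.92 against 53.0, 21.2 and 49.2 CPM at 8 h. The older cultures stayed near the same level, the younger ones were higher at 8 h, and the age difference went from 6.06 to 4.12. None of these differences was called without the culture block, without animal 1 or without animal 3, where 0 genes in all passed edgeR's test, with 1086, 1703 and 1367 genes at an unadjusted p under 0.05. Without animal 2 the count was 77, GRIK5 not among them.

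**Figure D3:**
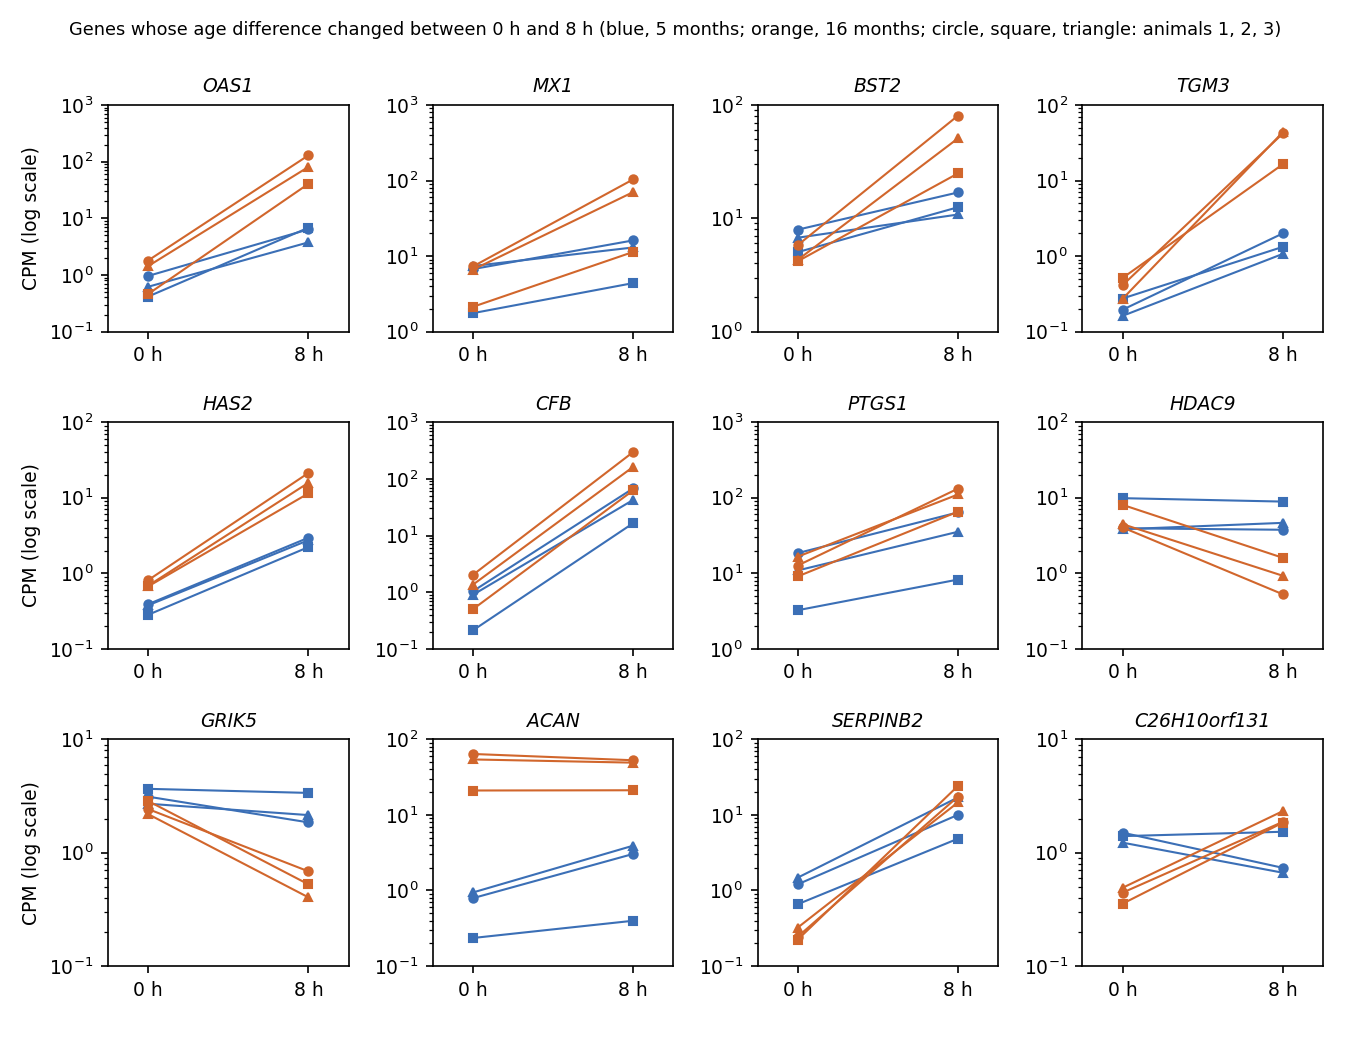
CPM (log axis) at 0 h and at 8 h of LPS in the 6 cultures for 12 genes, a line for each culture and a colour for each age. OAS1, MX1, TGM3 and HAS2 rise further in the 16-month cultures, HDAC9 falls in them and stays level at 5 months, and ACAN is level at 16 months and higher at 8 h at 5 months.

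**Figure D4:**
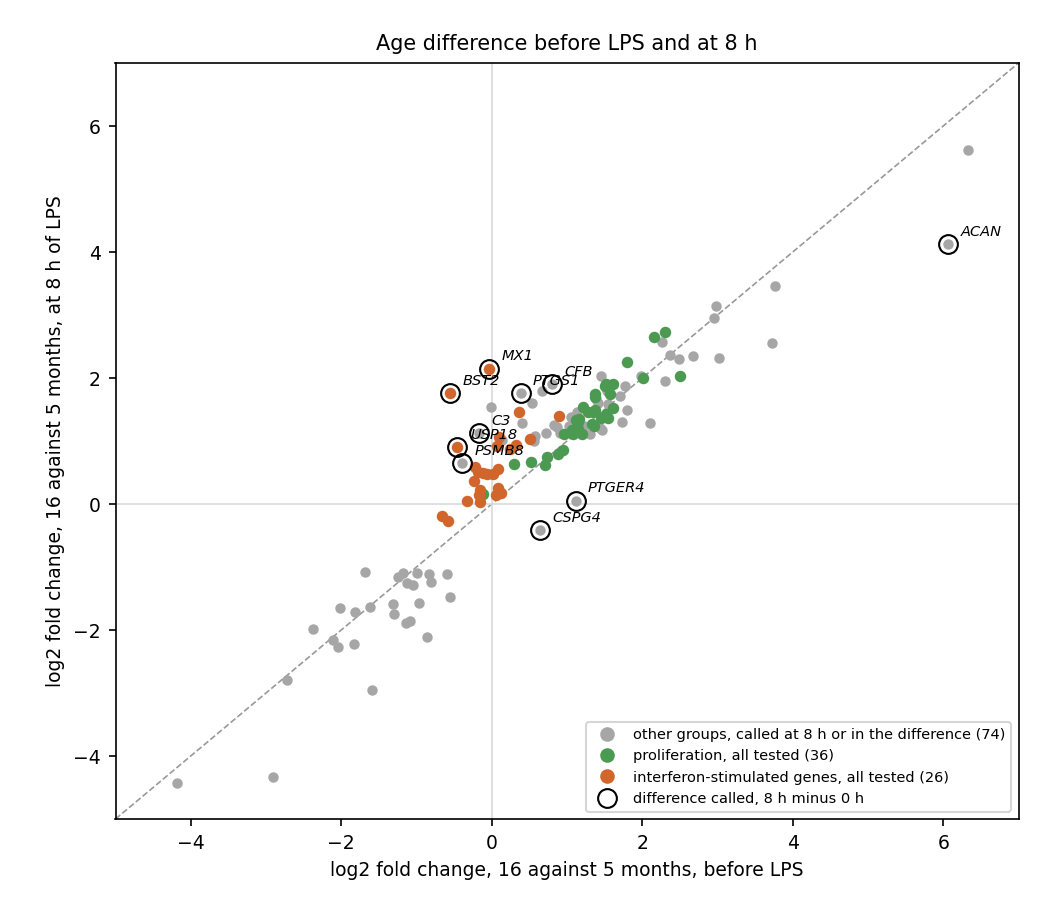
Log2 fold change of 16 over 5 months at 0 h (horizontal axis) and at 8 h (vertical axis) for 26 interferon-stimulated genes, 36 proliferation genes and 74 genes of other lists that were called at 8 h or in the difference, with a dashed line where both are equal and rings around the 10 genes whose difference was called. Most proliferation genes lie along the line and most interferon-stimulated genes above it.

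Proliferation genes were higher at 16 months in most members at both times. Of 37 tested 29 were higher and 0 lower at 16 months, all 37 had non-overlapping groups (27.7% of all genes tested did in that direction), and the median was 1.36. Before LPS 28 of 36 were called, with a median of 1.34, and 0 of 36 passed the test of the difference between times. Summed over the list, the level was 467 to 599 CPM at 5 months and 1260 to 1578 CPM at 16 months. CDC6, which loads the replicative helicase, was at 2.69, 0.589 and 1.79 against 9.40, 10.9 and 12.9 CPM (2.73 ± 0.40, adjusted p = 0.01). The repressor E2F8 was at 1.51, 0.398 and 1.32 against 5.97, 7.05 and 7.48 CPM (2.65 ± 0.37, adjusted p = 0.00855). FOXM1, the driver of mitotic genes, was at 1.19, 0.471 and 1.12 against 4.18, 4.02 and 5.45 CPM (2.25 ± 0.23, adjusted p = 0.00408).

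The proliferation marker MKI67 was at 19, 18.6 and 24.7 against 79.9, 69.4 and 95.6 CPM (1.88 ± 0.08, adjusted p = 0.00104), and the replication clamp PCNA was at 33.9, 24.4 and 29.7 against 64.9, 62.3 and 75.9 CPM (1.12 ± 0.09, adjusted p = 0.00217). Within the list the 16-month library of animal 3 was the highest of its age in 26 of the 29 and the 5-month library of animal 2 the lowest in 26. Among all 435 higher genes the same libraries were the highest in 211 and the lowest in 281. The count of called genes was 25 to 30 with 1 animal left out and 29 without the animal block. CDC6 and the nuclease EXO1 (2.03 ± 0.46) were not called without animal 3.

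Of 13 cell-cycle inhibitors 1 was higher and 1 lower (over all genes 3.33% and 1.60%), or 1 and 2 without animal 2 (3.86% and 1.89%). CDKN2B (p15), an inhibitor of CDK4 and CDK6 that TGF-beta induces, was at 116, 108 and 136 CPM at 5 months and 39.1, 53.9 and 37.8 CPM at 16 months (-1.57 ± 0.13, adjusted p = 0.0027). Its relative CDKN2C (p18) was higher at both times (1.23 ± 0.11 at 8 h). CDKN2A, the locus of p16 and ARF, was at 46.6, 42.4 and 39.1 against 22.3, 28.7 and 20.4 CPM (-0.95 ± 0.07, adjusted p = 0.00201), just under the 2-fold minimum. In the DNA methylation list, which bears on a question of the study, 1 of 12 tested was called. That share (8.33%) was near that of all genes (4.93%). The gene was UHRF1, the partner that brings DNMT1 to newly replicated DNA, at 13.0, 7.79 and 11.1 against 37.5, 36.6 and 50.6 CPM (1.88 ± 0.14, adjusted p = 0.00206). The window of UHRF1 overlaps LOC100848256. DNMT1, the maintenance methyltransferase, was at 25.2, 18.6 and 23.6 against 41.6, 38 and 42.3 CPM (0.77 ± 0.04, adjusted p = 0.00149), and the de novo enzyme DNMT3A was below the filter at 0.421 to 0.792 CPM.

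The type I and III collagens that form the bulk of the dermis were not called. Of 21 collagen genes tested, 3 were higher and 2 lower (over all genes 3.33% and 1.60%), with a median of -0.14. Without animal 2 there were 4 higher and 1 lower, where 3.86% and 1.89% of all genes were. COL8A1 was at 1.19, 1.49 and 1.35 CPM at 5 months and 12.3, 30.5 and 10.6 CPM at 16 months (3.46 ± 0.24, adjusted p = 0.00191). Its partner in type VIII collagen, COL8A2, was lower, at 14.9, 16.7 and 16.2 against 4.91, 5.50 and 4.90 CPM (-1.74 ± 0.07, adjusted p = 0.00102), as was the anchoring fibril collagen COL7A1 (-1.11). The basement membrane collagens COL15A1 (120, 69.5 and 142 against 557, 391 and 450 CPM, 2.03 ± 0.14) and COL18A1 (9.97, 12.4 and 11.6 against 36.3, 40.9 and 38.3 CPM, 1.67 ± 0.08) were both higher. COL3A1 was at -0.08 ± 0.16 and COL1A2 at -0.43 ± 0.14. COL1A1, whose window overlaps LOC100847582, was at 8637 CPM at 5 months and 25437 CPM at 16 months in animal 1, at 38798 and 8092.5 CPM in animal 2 and at 9153.8 and 22853 CPM in animal 3. Animal 2 thus went the opposite way from the other two, and the fitted change was 0.28 ± 0.93 (adjusted p = 0.838).

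Among 20 elastic fibre genes 1 was higher and 1 lower, where 3.33% and 1.60% of all genes were. ELN, elastin itself, was higher, at 97.6, 293 and 151 against 725, 835 and 513 CPM (1.95 ± 0.31, adjusted p = 0.0125), and was not called without animal 3. LTBP1, which tethers latent TGF-beta to microfibrils, was lower, at 171, 277 and 243 against 47.9, 86.6 and 55.2 CPM (-1.98 ± 0.08, adjusted p = 0.000991). Its window overlaps LOC100336097. The fibrillin gene FBN1 was at -0.10 ± 0.07 (adjusted p = 0.313). Of 29 proteoglycan, hyaluronan and matricellular genes 4 were higher (ACAN, HAS2, SMOC2 and TNN) and 2 lower (POSTN and PODN). Without animal 3 there were 2 higher and 3 lower, and with 1 CPM asked of every library 2 of 26 were higher and 1 lower. POSTN, periostin of growing and healing dermis, was at 228, 572 and 202 against 21.2, 180 and 25.5 CPM (-2.79 ± 0.32, adjusted p = 0.00531). Animal 2 was the highest at both ages, and POSTN was not called without the animal block, where the list had 3 higher and 0 lower. SMOC2, a matricellular calcium-binding protein, was at 11.9, 23.4 and 13.6 against 110, 58.8 and 94.9 CPM (2.36 ± 0.43, adjusted p = 0.0167) and was not called without animal 1 (1.93) or animal 3.

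Of 23 matrix proteases and inhibitors 3 were higher and 1 lower, where 3.33% and 1.60% of all genes were. With 1 CPM asked of every library 2 of 22 were higher and 1 lower, where 2.49% and 1.12% of all genes were. MMP3, stromelysin-1, was at 0.118, 0.0294 and 0.121 CPM at 5 months and 3.81, 2.19 and 2.3 CPM at 16 months (4.82 ± 0.31, adjusted p = 0.00161), and it passed the filter through the older cultures alone. The aggrecanase ADAMTS5 was at 22.4, 8.07 and 23.5 against 56.6, 23.2 and 42.5 CPM (1.13 ± 0.11), overlapping between the ages and not called without the animal block. MMP19 (1.13 ± 0.13) was higher, though not without animal 3, and MMP11 was lower (-1.23 ± 0.13). Of 23 adhesion genes 3 integrin alpha chains were lower, ITGA8 at 13.4, 28.0 and 20.3 against 3.43, 6.82 and 3.57 CPM (-2.26 ± 0.12, adjusted p = 0.00149), ITGA9 at -1.28 ± 0.11 and the laminin receptor chain ITGA6 at -1.25 ± 0.07. All 3 were also lower at 0 h. ITGA7 was the 1 higher (1.49 ± 0.39, adjusted p = 0.0421), with a window that overlaps METTL7B, and was not called without animal 1, without animal 3 or without the block.

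A pair of secreted inhibitors of BMP signals was lower at 16 months. NOG, noggin, was at 7.49, 6.86 and 8.21 against 1.97, 3.32 and 2.91 CPM (-1.58 ± 0.15, adjusted p = 0.00364), and GREM1, gremlin, at 76.3, 90.9 and 79.2 against 22.1, 46.9 and 29.8 CPM (-1.48 ± 0.13, adjusted p = 0.00273). ID1, a target gene of BMP receptors, was higher at 28.0, 15.7 and 23.8 against 65.4, 43.1 and 65.8 CPM (1.28 ± 0.06, adjusted p = 0.00116), as was the type I receptor ACVRL1 (1.11 ± 0.12), which was not called without animal 2 (0.98). With INHBA (-1.08), these were the 2 higher and 3 lower of 29 tested genes of TGF-beta and BMP signalling, whose median was -0.09.

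WNT signalling had 27 genes tested, 1 higher and 5 lower, with a median of -0.33. RSPO2, an R-spondin that strengthens WNT signals, was at 2.65, 1.62 and 4.53 against 0.347, 0.464 and 0.299 CPM (-2.95 ± 0.38, adjusted p = 0.00716) and passed the filter through the younger cultures alone. The receptor FZD1 was lower (-1.09) and NKD2, an inhibitor of WNT signals, higher (1.21). The ligands WNT2B (-2.23 ± 0.41), WNT11 (-1.89 ± 0.17) and WNT9A (-1.86 ± 0.44) were lower, and in each the 16-month library of animal 2 was the highest of its age, for WNT9A at 1.09 against 0.221 and 0.239 CPM. None of these ligands was called without the animal block, and WNT2B and WNT9A were not called without animal 1 or animal 3. Without the block the list had 1 higher and 2 lower (over all genes 2.92% and 1.13%), and without animal 2 it had 4 and 5. With 1 CPM asked of every library 22 were tested, 1 higher and 1 lower, with a median of -0.14. In the IGF axis 3 of 16 tested genes were lower and 0 higher. IGF2BP2 and IGF2BP3, RNA-binding proteins of fetal growth, were at 13.8, 12.7 and 13.6 against 2.43, 5.56 and 2.33 CPM (-2.16 ± 0.26, adjusted p = 0.00598) and at 19.6, 15.3 and 19.9 against 5.38, 6.74 and 5.62 CPM (-1.72 ± 0.12, adjusted p = 0.00183). Both were called at 0 h too (-2.10 and -1.82). IGFBP5 (-1.17 ± 0.31, adjusted p = 0.0446) was not called when any single animal was left out.

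The largest rises and falls were taken among called genes whose mean over the 6 libraries exceeded 1 CPM. NPY1R, a neuropeptide Y receptor, led the rises at 0.0454, 0.0736 and 0.0202 against 5.11, 3.60 and 4.87 CPM (6.59 ± 0.38, adjusted p = 0.00149), and its difference at 0 h was 6.65. TMEM100, a transmembrane protein downstream of BMP and ALK1 signals, was at 0.118, 0.0147 and 0.0706 against 8.60, 1.04 and 3.52 CPM (5.91 ± 0.22, adjusted p = 0.000991). GREB1, an oestrogen-induced gene, was at 0.0998, 0.133 and 0.101 against 7.14, 4.81 and 5.30 CPM (5.63 ± 0.25, adjusted p = 0.00106). NTS, the precursor of neurotensin, was at 0.309, 0.398 and 0.474 against 12.5, 10.3 and 12.2 CPM (4.82 ± 0.19, adjusted p = 0.000991). The rest of the 12 largest rises were MX2, MMP3, TGM3, ACAN, DTX4 (4.36), ARHGDIB (4.15), MAN1C1 (4.11) and SLCO4A1 (4.09), of which SLCO4A1 was not called without animal 1 (3.54). Of the 12, TGM3, ACAN and MAN1C1 had 1 CPM in 5-month libraries as well, and the other 9 passed the filter through the older cultures alone.

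Among the 8 largest falls were developmental transcription regulators. EYA4, a transcriptional coactivator, was at 19.5, 6.57 and 20.7 against 0.832, 0.550 and 0.777 CPM (-4.42 ± 0.20, adjusted p = 0.00109), a 21.5-fold difference. PAX3, a regulator of neural crest and muscle precursors, was at 2.24, 2.53 and 1.72 against 0.0526, 0.171 and 0.134 CPM (-4.34 ± 0.34, adjusted p = 0.00228). Both were called at 0 h (-4.19 and -2.90). CD200R1L was at 11.8, 15.5 and 12.4 against 1.48, 0.171 and 0.687 CPM (-4.27 ± 0.63, adjusted p = 0.00981) and was not called without animal 3. CD200R1L encodes a relative of the CD200 receptor. The others were LOC100848767 (-3.54), USP43 (-3.30), LOC784924, listed by RefSeq as VWC2 (-3.16), SRSF12 (-3.09) and GDAP1L1 (-3.05). Of the 8, EYA4, PAX3, LOC100848767, LOC784924 and SRSF12 passed the filter through the younger cultures alone. USP43 was not called without animal 1, and USP43 and GDAP1L1 were not called without the animal block.

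**Figure D5:**
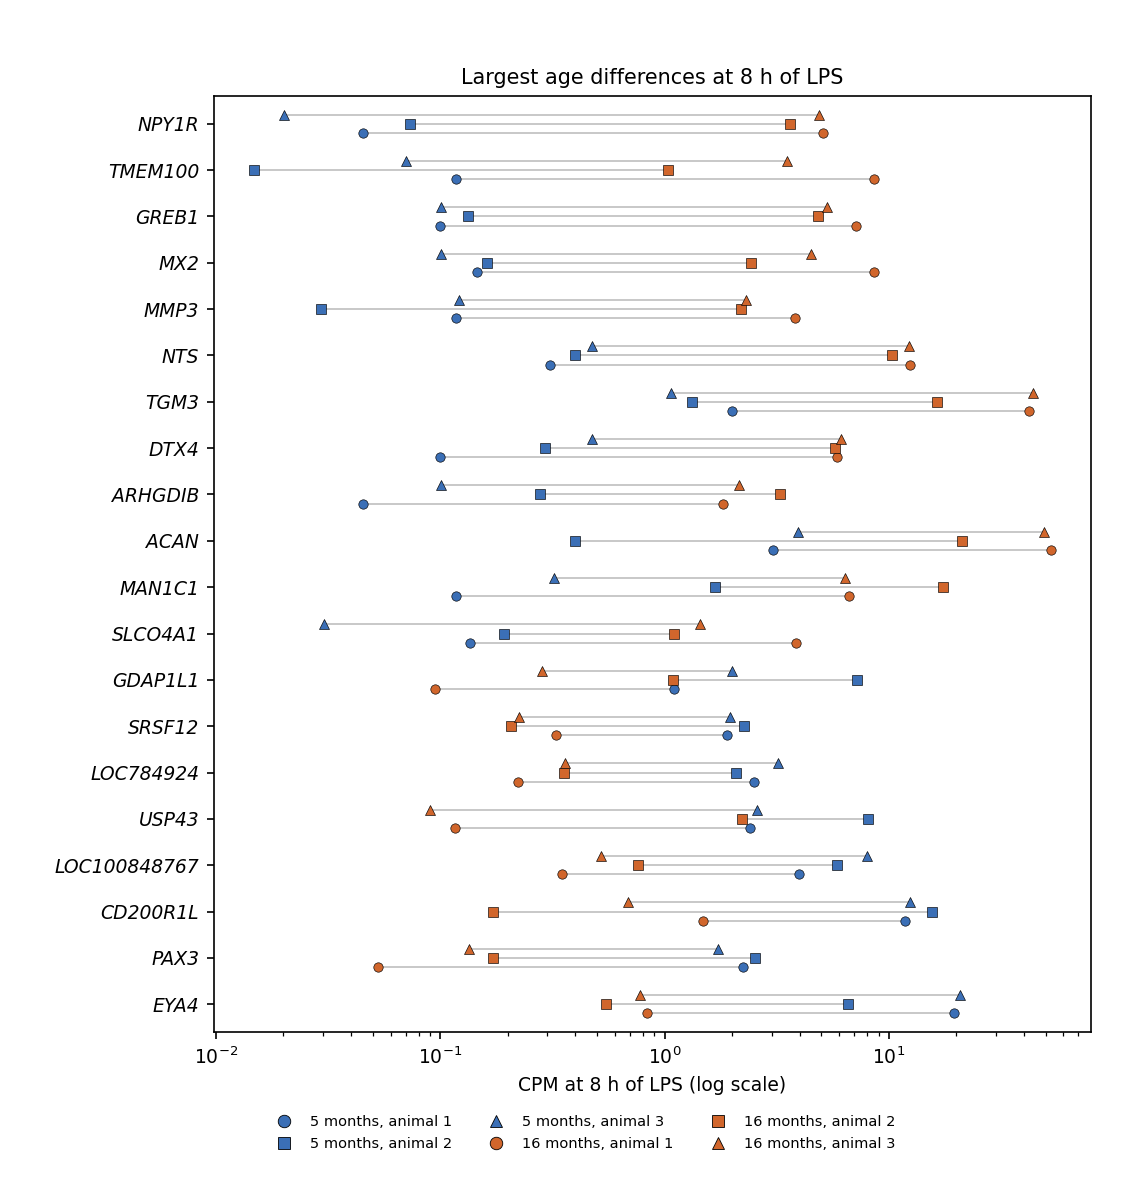
CPM at 8 h of LPS (log axis) in each of the 6 libraries for the 12 called genes with the largest rises and the 8 with the largest falls at 16 months. The ages do not overlap for any of the 20 genes (36.8% of all genes tested), from NPY1R (log2 fold change 6.59) to GDAP1L1 (-3.05). All 20 were picked for their size, and those that passed the filter through a single age had to be apart. For USP43 and GDAP1L1 the 16-month point of animal 2 nearly reaches the lowest 5-month point.

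The developmental transcription factors went both ways. Of 22 tested 5 were higher and 2, EYA4 and PAX3, lower, by adjusted p alone 6 were higher and 7 lower (over all genes 15.5% and 14.1%), and the median was 0.06. With 1 CPM asked of every library 4 of 16 were higher and 0 lower. TFAP2A was at 2.41, 2.64 and 2.71 against 15.0, 20.2 and 14.9 CPM (2.58 ± 0.09, adjusted p = 0.000991). TBX2 was at 0.445, 0.280 and 0.373 against 2.20, 2.22 and 2.45 CPM (2.55 ± 0.19, adjusted p = 0.0021) and passed through the older cultures alone. MEOX2 (1.30), TBX3 (1.26) and TWIST2 (1.01) were the other called factors. The HOX genes, which keep a record of body position in fibroblasts, had 1 of 19 called, a share near that of all genes (4.93%). The gene was HOXA13, at 1.13, 1.05 and 1.22 against 0.484, 0.525 and 0.627 CPM (-1.15 ± 0.17, adjusted p = 0.0103). It passed the filter through the younger cultures alone, so that it had to be lower, and was not called without animal 1 or animal 3. With 1 CPM asked of every library or of the mean, 0 HOX genes were called, and without animal 2 the list had 2 lower. In the steroid and retinoid list RARRES1, a retinoic acid receptor responder, was at 13.9, 12.1 and 14.1 against 140, 68.8 and 136 CPM (2.95 ± 0.23, adjusted p = 0.00217), 7.73-fold higher at 8 h and 7.77-fold at 0 h. The retinoic acid carrier CRABP2 was lower (-1.10 ± 0.14), though not called without animal 3.

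Of 17 tested genes of oxidative defence 3 were higher and 0 lower, where 3.33% and 1.60% of all genes were. SOD2, the mitochondrial superoxide dismutase that NF-kB induces, was at 8.69, 8.11 and 6.93 against 41.2, 15.8 and 21.7 CPM (1.54 ± 0.28, adjusted p = 0.0173) and at -0.01 before LPS. The test of the difference between times missed the threshold (1.56 ± 0.33, adjusted p = 0.0601), and without animal 3 SOD2 was not called. The metallothionein MT2A was at 10.1, 8.57 and 5.24 against 31.0, 22.7 and 32.8 CPM (1.79 ± 0.27), and the extracellular peroxidase GPX3 at 8.51, 7.13 and 9.83 against 30.6, 22.3 and 22.1 CPM (1.46 ± 0.14). In sterol and fatty acid synthesis 2 of 21 genes were higher, where 3.33% of all genes were. These were the desaturases FADS2 (1.54, 1.12 and 1.22 against 4.92, 9.58 and 3.90 CPM, 2.03 ± 0.28) and FADS1 (9.88, 10.7 and 8.96 against 22.2, 34.1 and 19.9 CPM, 1.23 ± 0.08), both of them called at 0 h as well. Among the markers of other cell types the cartilage gene MATN3 was lower (-1.64 ± 0.15), and the fibroblast marker DPT, dermatopontin, was lower with overlapping groups (-1.65 ± 0.13) and not called without the block. The 8 chondrocyte markers summed to 25.2 to 54.8 CPM at 5 months and 12.4 to 22.5 CPM at 16 months. None of the 3 tested chondrocyte markers lay above 0.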

How the data were processed

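Per the labels and the study's methods, poly-A RNA was sequenced as single-end reads from kits that do not keep strand, low-quality reads were removed, and NextGENe matched the rest to the UMD 3.1 cattle genome and divided it into windows. The deposited values are read counts per window as the authors' software gave them, not normalized. Of the 27550 gene windows 14.2% overlapped another, and without strand overlapping genes cannot be told apart. Windows without a gene name stayed out of library totals and tests. From these counts, gene windows with at least 1 CPM in 3 of 6 libraries were fitted with edgeR 4.0.16 (R 4.3.3, TMM factors, quasi-likelihood F test, animal as a block), and the difference between times with 1 CPM in 6 of 12 libraries, culture as a block and an age-by-time term. Genes were called at a Benjamini-Hochberg adjusted p under 0.05 and at least 2-fold. The pairing came from the animal numbers in the labels, and deviations of the paired libraries correlated (r = 0.43, 0.56 and 0.23), although those of animals 1 and 3 also did across the pairs (0.27 and 0.26). The fits were tested on simulated data. Alternatives used limma 3.58.1 and DESeq2 1.42.0 and other settings. Limits on a count of 0 rest on 3 reads over the group and cover counting error only. Genes were named by rule: the 6 genes the study also measured by RT-PCR, the 12 largest rises and 8 largest falls, up to 4 called members of each of 24 pathway and 10 marker lists, and up to 4 differences between times in each direction. Others are named for their role or, where said, after their values were seen. The members and lists were chosen with earlier results of these data known. Gene names follow the files, and LOC784924 was looked up in a RefSeq table.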

Additional observations from a re-analysis of the deposited data

Results flagged for a closer look

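For 11 named genes the age difference at 8 h of LPS differed from that at 0 h by the test of the age-by-time term in edgeR, which is what marked them. The log2 difference (age effect at 8 h minus that at 0 h) was more positive at 8 h for TGM3 (3.63), OAS1 (3.00), SERPINB2 (2.96), C26H10orf131 (2.81), HAS2 (1.56), PTGS1 (1.37) and CFB (1.22). It was more negative for HDAC9 (-2.50), ACAN (-1.95), GRIK5 (-1.80) and LMCD1 (-1.43). C26H10orf131, an open reading frame of chromosome 26, was lower at 16 months before LPS (-1.78) and had 0.735, 1.53 and 0.666 against 1.87, 1.85 and 2.33 CPM at 8 h (1.04 ± 0.36, adjusted p = 0.0896 in edgeR's test), so the direction of its fitted age effect changed between the times. LMCD1, a LIM-domain protein, was at 9.75, 11.1 and 13.4 against 5.01, 6.83 and 6.60 CPM at 8 h (-0.99 ± 0.07) and at 32.0, 29.0 and 40.2 against 59.2, 40.7 and 48.4 CPM before LPS. All 11 calls were lost without the culture block, without animal 1 and without animal 3. Each log2 difference kept its sign in these fits, with TGM3 at 3.66, 3.63 and 3.17 and CFB at 1.16, 1.14 and 1.07.

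Windows with no gene name, which no comparison of genes uses, also held age differences. Of 11892 tested at 8 h (32296 in all), 338 (2.84%) were called, 196 higher and 142 lower at 16 months. How far neighbouring windows share reads with each other and with genes was not tested.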

How the results depend on the processing

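The count of genes called for age at 8 h (644) was also 644 under RLE factors and lay between 441 (1 CPM in every library) and 871 (no filter) under other factors and filters, DESeq2, limma-voom and the likelihood-ratio test. It was 720 under library size alone and 635 under a mean of 1 CPM, a filter chosen after seeing the data. Dropping the 2-fold minimum gave 3857. Leaving out 1 animal gave 512 to 755. Without the animal block, so without the pairing, 529 were called. Of 92 named called genes 59 kept their call wherever they were tested, and the 33 others lost it only without the block or without an animal. The cause was not tested.

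The 35 calls for the difference between times became 57 with no filter, 77 by the likelihood-ratio test, 68 by DESeq2 and 179 with no fold change minimum. They became 0 without the replicate block, where 1086 genes had an unadjusted p under 0.05, and 0 to 77 when 1 animal was left out. At 0 h 525 genes were called, 383 without the block and 490 to 576 without 1 animal. MITF, a melanocyte marker near 0 (0.01), reversed to -0.0034 under upper-quartile factors and lay between -0.12 and 0.14 without 1 animal. The 3 pairs and the totals of 66955034 to 110169769 counts set the precision, and genes near 1 CPM rest on the fewest reads.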

Other observations

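Of the listed genes, 222 were under the filter at 8 h, and 22 of them were called by edgeR's test when all genes were fitted, 17 higher and 5 lower at 16 months, where 871 of all 22302 genes fitted (3.91%) were called, 567 higher and 304 lower. They were picked out after their values were seen, and their counts are few. CSF3, the granulocyte growth factor, had 5 reads over the 3 libraries at 5 months and 168 at 16 months (4.61 ± 0.94, adjusted p = 0.0195), most of them in animal 1 at 1.56 CPM against 0.0855 and 0.194 CPM in animals 2 and 3. NOS2, the inducible nitric oxide synthase, had 31 and 382 reads, and its 16-month libraries ran from 3.43 CPM in animal 1 to 0.0896 CPM in animal 3, so the ages overlapped. IDO1, the interferon-induced tryptophan-degrading enzyme, had 3 and 58 reads, higher in 3 of 3 animals (4.23 ± 0.78, adjusted p = 0.0137). MMP12, macrophage elastase and a genomic neighbour of MMP3 on chromosome 15, had 17 and 201 reads (3.53 ± 0.34, adjusted p = 0.00129) with no overlap. On the lower side RSPO1, like RSPO2 an R-spondin, had 76 and 3 reads (-4.76 ± 0.79, adjusted p = 0.00903), and HOXA10 had 172 and 35 (-2.23 ± 0.34, adjusted p = 0.00714). CCL28, an epithelial chemokine, was the 1 chemokine lower in that fit, with 178 and 68 reads (-1.32 ± 0.32, adjusted p = 0.0353).

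A stretch of chromosome 4 was picked out after its values were seen. MEST, an imprinted gene of fetal growth (chr4:95066962-95079691, UMD 3.1), was at 16.8 ± 2.08 CPM at 5 months and 2.97 ± 0.191 CPM at 16 months (SD, n = 3), a log2 fold change of -2.59 ± 0.13 (adjusted p = 0.00148 in edgeR's test) and of -2.40 at 0 h. Its neighbour COPG2 (chr4:95079913-95209257), a subunit of the coat of transport vesicles, was at 47.7 ± 7.57 and 24.6 ± 0.747 CPM (-1.04 ± 0.09, adjusted p = 0.00319). LOC100848767, which lies inside COPG2 on the other strand, was lower as well (-3.54 at 8 h and -3.76 at 0 h). Reads of the pair cannot be told apart by strand. Of 17 windows within 500 kb, 8 were tested, and the 5 other than these 3 were not called, with log2 fold changes from -0.20 to 0.46. The lowest of the 5, KLHDC10, had an adjusted p of 0.032 in edgeR's test (-0.20 ± 0.05) and was under the 2-fold minimum.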
